A study of Rattus norvegicus with 10 samples.

Results

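The transcripts of Fn1, Fbn1 and Col1a1 were followed in the lens capsules of 10 rats by RNA-seq. These genes were chosen by name, with earlier results of these data known, and they are 3 of the 3334 genes in the table analysed here. The question was how far their levels differed between rats, and whether they were highest in the same ones. Each sample pooled the 2 lens capsules of 1 male Sprague-Dawley (SD) rat of 6 weeks. In the Hypothermia Group (5 rats) the isolated lenses were kept in Hibernate-A medium at 4°C for 8 h before the capsules were separated. In the Normal Group (5 rats) the capsules were taken directly after euthanasia, without medium, so cold, medium and the hours outside the body cannot be told apart.

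Fn1 encodes fibronectin, a secreted glycoprotein that cells assemble into fibrils through integrins, and lens epithelial cells make more of it when they turn into myofibroblast-like cells. Fbn1 encodes fibrillin-1, the main building block of the microfibrils that form the zonule, the ring of fibres that holds the lens to the ciliary body. Its inherited defects cause Marfan syndrome, in which the lens can become displaced. Col1a1 encodes the α1 chain of collagen I, the main fibrillar collagen of sclera, corneal stroma and other connective tissue. The lens capsule itself is a basement membrane, built mainly of collagen IV, laminins, nidogens and perlecan.

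On Rnor_6.0, Fn1 lies on chromosome 9 from 78900103 to 78969078 on the minus strand. Fbn1 lies on chromosome 3 from 117569697 to 117766120 on the minus strand, and Col1a1 on chromosome 10 from 82745801 to 82762789 on the plus strand. All were annotated as protein coding. Counts over all listed genes came to between 4792595 and 8177803 in the Normal Group and between 9026144 and 12415121 in the Hypothermia Group. These sums are only part of each library, because the table is a list of genes that had differed between these same 10 rats in the authors' own comparison. A lower or higher level of a listed gene was therefore given by the choice of the list, and the sizes, errors and values by rat are what is described. Lens epithelium transcripts were present in every rat, with Pax6, a transcription factor of the lens epithelium, whose normalized count was 6918 ± 109 (SD, n = 5) in Normal and 5796 ± 302 (SD, n = 5) in Hypothermia rats. A normalized count is the number of reads divided by the size factor of that library.

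Fbn1 was by far the most abundant of these transcripts per gene length. The deposited FPKM is the normalized count divided by the length of the gene, times the same constant in all libraries. Within a gene it is thus the normalized count on another scale. In this unit Fbn1 reached 81.9 ± 86.2 (SD, n = 5) in Normal rats and 16.8 ± 10.4 (SD, n = 5) in Hypothermia rats. Fn1 reached 2.40 ± 2.59 (SD, n = 5) in Normal rats, compared with 0.286 ± 0.243 (SD, n = 5) in Hypothermia rats. Col1a1 lay at 1.94 ± 2.24 (SD, n = 5) in Normal rats, compared with 0.315 ± 0.206 (SD, n = 5) in Hypothermia rats. Within each group, the mean FPKM of Fn1 and Col1a1 differed by less than the SD of either gene.

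Fn1 had normalized counts of 256, 124, 975, 106 and 221 in Normal replicates 1 to 5. In Hypothermia replicates 1 to 5 they were 85.6, 7.32, 8.79, 36.7 and 61.8. Every Normal rat thus lay above every Hypothermia rat, and Normal replicate 3 stood far above the rest of its group. The low end rested on few reads, with 7 reads each in Hypothermia replicates 2 and 3 and 1225 in Normal replicate 3.

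The fitted log2FoldChange of Fn1 (Hypothermia against Normal) was -3.09 (standard error 0.80, adjusted p = 0.0292, edgeR). All such p-values came from the quasi-likelihood F-test of edgeR, adjusted by the Benjamini-Hochberg method. Fn1 was the only one of the 3 genes called, that is, with an adjusted p under 0.05. In the same fit 72.9% of the tested genes of the table were called, 20.5% as lower and 52.3% as higher in the Hypothermia Group, and since the list was chosen on this contrast nothing can be read from 1 call in 3. The difference of the mean log2 values was also -3.09 (two-sided p = 0.00794 by exact permutation, the smallest that 5 rats against 5 allow), one of 3 such tests. Fn1 was also the only one of the 3 whose groups did not overlap, as was so for 58.5% of tested genes, and for 16.7% with the Hypothermia rats below the Normal rats. Fewer cells that make a transcript and less transcript per cell cannot be told apart in such bulk samples.

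The size of the Fn1 change depended on Normal replicate 3. Without it the log2FoldChange fell to -2.15 (standard error 0.61, adjusted p = 0.0551, edgeR), and the call was lost. The call was also lost without Hypothermia replicate 2, 3, 4 or 5, with adjusted p-values (edgeR) of 0.0548, 0.0780, 0.0672 and 0.0563. The median of the Normal rats was 6.0 times that of the Hypothermia rats, against a ratio of 8.40 between the means.

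Fbn1 had normalized counts of 6352, 2570, 788, 27614 and 30055 in Normal replicates 1 to 5. In Hypothermia replicates 1 to 5 they were 4762, 2231, 1600.5, 882 and 4329. The Normal rats fell into 2 with very high levels, replicates 4 and 5, and 3 that lay within or close to the range of the Hypothermia rats. Normal replicate 3, the rat with the highest Fn1, had the lowest Fbn1 of all 10 rats.

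The log2FoldChange of Fbn1 was -2.29 (standard error 0.91, adjusted p = 0.159, edgeR), so the gene was not called. The mean log2 values differed by -1.47 (exact permutation test, two-sided p = 0.214). This lower size and the ratio of 2.85 between the group medians, against 4.88 between the means, show how much of the difference lay in replicates 4 and 5. Without Normal replicate 5 the log2FoldChange was -1.76 (adjusted p = 0.432, edgeR), and without Normal replicate 3 it was -2.59 (adjusted p = 0.0554, edgeR). None of the 10 leave-one-out fits, each without 1 rat, called it.

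Col1a1 had normalized counts of 40.7, 35.2, 271, 534 and 60.4 in Normal replicates 1 to 5. In Hypothermia replicates 1 to 5 they were 63.9, 30.3, 13.8, 16.3 and 28.2. Normal replicates 3 and 4 were high, while Hypothermia replicate 1 exceeded the other 3 Normal rats.

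For Col1a1 the log2FoldChange was -2.63 (standard error 0.84, adjusted p = 0.0657, edgeR). The mean log2 values differed by -1.96 (exact permutation test, two-sided p = 0.0476), and this p was 0.0794 or 0.0952 without Hypothermia replicate 2, 3, 4 or 5 or without Normal replicate 3, 4 or 5. Without Normal replicate 4, the rat with the highest level, the log2FoldChange was -1.74 (standard error 0.69, adjusted p = 0.175, edgeR). Without Normal replicate 1 or 2 the gene was called, with adjusted p-values (edgeR) of 0.0400 and 0.0450. The median of the Normal rats was 2.14 times that of the Hypothermia rats, against a ratio of 6.17 between the means.

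**Figure D1:**
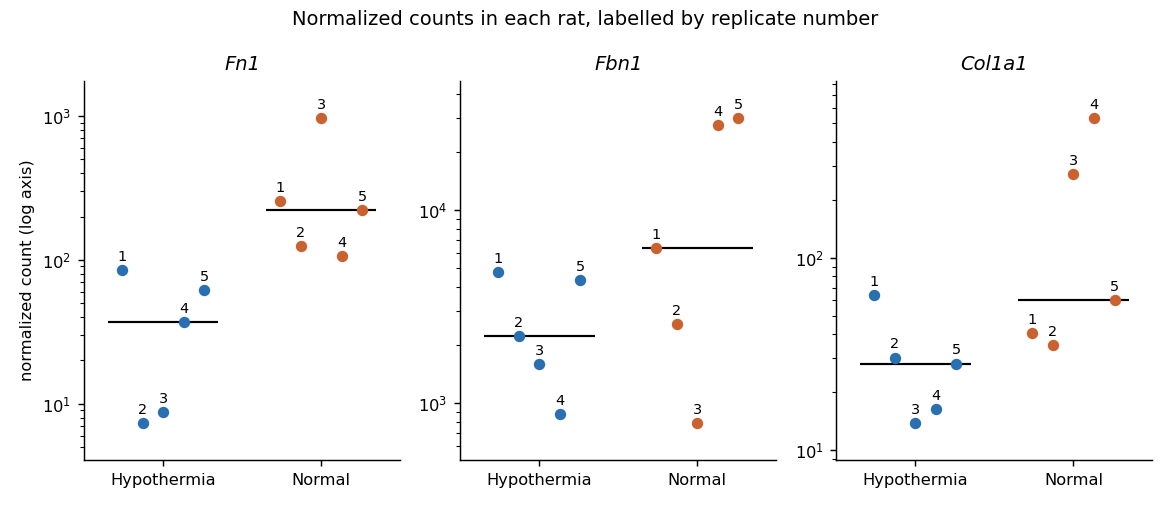
Normalized count (log axis) of Fn1, Fbn1 and Col1a1 in each of the 10 rats, by group. Points carry the replicate number and the bars mark the group medians. The groups are separate for Fn1 only, and the highest Normal rat is replicate 3 for Fn1, 5 for Fbn1 and 4 for Col1a1.

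The 3 transcripts did not peak in the same Normal rats. Normal replicate 3 held 57.9% of the summed normalized count of Fn1 in the Normal Group, against 1.17% of that of Fbn1 and 28.8% of that of Col1a1. Normal replicate 4 held 56.7% of Col1a1 and 41.0% of Fbn1, but only 6.32% of Fn1, its lowest Normal value. Normal replicate 5 held 44.6% of Fbn1, 13.1% of Fn1 and 6.41% of Col1a1.

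Pairs of genes shared a high rat, but never all 3. Col1a1 was high with Fn1 in Normal replicate 3 and with Fbn1 in Normal replicate 4. Fbn1 and Fn1 shared none, and the rat with the highest Fn1 had the lowest Fbn1. From the highest to the lowest it ran 5, 4, 1, 2, 3 for Fbn1 and 3, 1, 5, 2, 4 for Fn1, while for Col1a1 it ran 4, 3, 5, 1, 2. With 5 rats a group no correlation was computed.

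**Figure D2:**
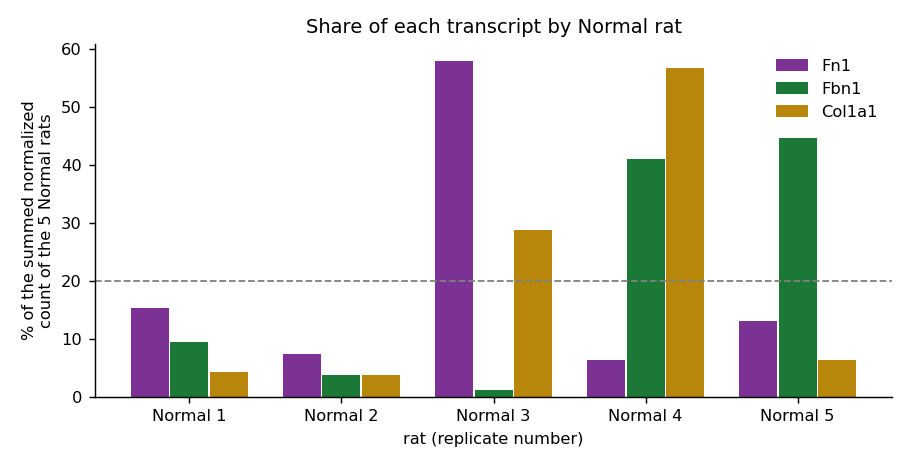
Share of the summed normalized count of the 5 Normal rats that each rat held, in percent, for Fn1, Fbn1 and Col1a1. Bars start at 0 and the dashed line marks equal shares of 20%. Fn1 has its tallest bar in replicate 3 (57.9%), Col1a1 in replicate 4 (56.7%), and Fbn1 in replicates 5 (44.6%) and 4 (41.0%).

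The ratios of the FPKM values show the same within single rats. Fbn1 was 221 times as high as Fn1 in Normal replicate 4 and 116 times in Normal replicate 5. In Normal replicate 3 the ratio was 0.687, and this was the only rat in which Fn1 was above Fbn1. The lowest ratio in the other 9 rats was 17.6.

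Between Fn1 and Col1a1 the ratio held no fixed value in the Normal Group, where it ran from 0.138 to 4.36. The FPKM of Fn1 was 4.36, 2.45, 2.49 and 2.53 times that of Col1a1 in Normal replicates 1, 2, 3 and 5. In Normal replicate 4 it was 0.138 times. In the Hypothermia Group the ratio ranged from 0.167 to 1.56. All Hypothermia rats thus lay below the 4 Normal rats other than replicate 4, and above replicate 4. In Hypothermia replicates 2 and 3 the ratio rested on 7 reads of Fn1 each.

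In the Hypothermia Group the 3 transcripts did have their highest value in the same rat, replicate 1. It held 42.7% of the group's summed normalized count of Fn1, 34.5% of that of Fbn1 and 41.9% of that of Col1a1. The lowest values lay in different rats, Hypothermia replicate 2 for Fn1, 4 for Fbn1 and 3 for Col1a1. Hypothermia replicate 5 was next to replicate 1 for Fn1 (30.9%) and Fbn1 (31.4%), and replicate 2 for Col1a1 (19.9%).

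The spread of each gene was wide in both groups compared with the rest of the table. On log2(normalized count + 1), the SD of Fbn1 was 2.25 in the Normal Group and 1.01 in the Hypothermia Group. Among the 2981 genes whose normalized counts averaged 50 or more, 5 had a larger SD than Fbn1 in the Normal Group, and the median SD was 0.17. Col1a1 had an SD of 1.74 in the Normal Group, exceeded by 11 genes, and of 0.84 in the Hypothermia Group.

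For Fn1 the SD on this scale was 1.26 in the Normal Group, exceeded by 44 genes, and 1.55 in the Hypothermia Group, exceeded by 4. On the linear scale the coefficient of variation of Fn1 was 108% in the Normal Group and 84.7% in the Hypothermia Group. On log2(FPKM + 0.1) the order turned as well, with an SD of 1.2 in the Normal and 1.0 in the Hypothermia Group. Whether the Normal rats looked more variable for Fn1 thus depended on the scale and the pseudocount, and without Normal replicate 3 the log2 SD of the Normal Group was 0.61. For Fbn1 the coefficients were 105% and 61.7%, and for Col1a1 115% and 65.6%, so the Normal Group had the larger spread on both scales. The difference in spread between the groups was not tested.

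The fit across the table described the same spread as a biological coefficient of variation. It was 0.81 for Fn1, 0.89 for Fbn1 and 0.81 for Col1a1. Genes of like abundance had fitted values of 0.21, 0.20 and 0.28.

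**Figure D3:**
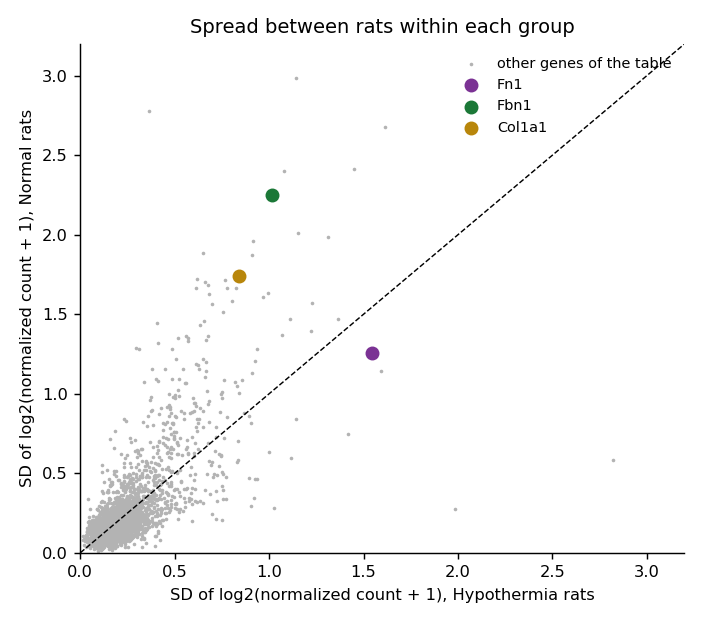
SD of log2(normalized count + 1) over the 5 Normal rats (vertical axis) against that over the 5 Hypothermia rats (horizontal axis) for genes of the table whose normalized counts averaged 50 or more. The dashed line marks equal spread. Fbn1 (2.25 and 1.01) and Col1a1 (1.74 and 0.84) lie above the line, and Fn1 (1.26 and 1.55) lies below it, an order that turned on log2(FPKM + 0.1).

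Of these 2981 genes, 43 had a highest Normal rat at least 3 times the Normal median, a limit chosen after the values were seen. Fn1, Fbn1 and Col1a1 were among them. Their ratios were 4.42, 4.73 and 8.84. Of the 43 genes, 20 were highest in Normal replicate 1, 14 in replicate 5, 5 in replicate 4, 3 in replicate 3 and 1 in replicate 2.

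For 15 of the 43, Fbn1 included, the highest 2 Normal rats were replicates 4 and 5, a share close to the 34.8% (364) of all 1045 genes of this abundance with a lower fitted level in the Hypothermia Group. Fn1 and Tagln were among the 3 genes that were highest in Normal replicate 3. Col1a1 was the only one of the 43 with replicates 3 and 4 as the highest 2. Among the same 1045 lower genes, 31.4% were highest in Normal replicate 4, 28% in replicate 5 and 18.1% in replicate 3.

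The genes whose levels ran most like each member over the 10 rats were found by the root mean square difference of their log2 values, each gene centred on its own mean. For Fbn1 they were Sned1 (0.24), F5 (0.34) and Thbs2 (0.44), all much closer than any gene described here for either other member. Sned1 encodes a matrix glycoprotein, F5 coagulation factor V, and Thbs2 thrombospondin-2, a matricellular protein.

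Sned1 had normalized counts of 3013, 1298, 543, 12138 and 11688 in Normal replicates 1 to 5, against 528.7 to 2263 in the Hypothermia Group. F5 had 1494, 417, 99.5, 5240 and 4342 in the Normal rats, against 111 to 688 in the Hypothermia rats. Both repeated the 2 high Normal rats and the low Normal replicate 3 of Fbn1. Their log2FoldChanges were -2.19 (adjusted p = 0.124, edgeR) and -2.76 (adjusted p = 0.0877, edgeR), and that of Thbs2 was -2.57 (adjusted p = 0.103, edgeR), so none was called.

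The nearest genes of Fn1 included Epas1 (1.31) and Tagln (1.33). Epas1 encodes the hypoxia-inducible factor HIF-2α, and Tagln transgelin, an actin-binding protein of contractile cells. Tagln had normalized counts of 84.2, 31.9, 274, 52.0 and 57.7 in Normal replicates 1 to 5 and 25.1 to 52.4 in the Hypothermia rats.

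Tagln shared the high Normal replicate 3 with Fn1. Epas1 had a log2FoldChange of -1.16 (adjusted p = 0.0756, edgeR) and was not high in Normal replicate 3, where its normalized count was 304 against 284 to 470.5 in the other Normal rats. Tagln had a log2FoldChange of -1.52 (adjusted p = 0.0985, edgeR).

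For Col1a1 the nearest genes were Plcd1 (1.05), Col6a1 (1.08) and Acacb (1.12), which encode phospholipase C δ1, the α1 chain of collagen VI and a mitochondrial acetyl-CoA carboxylase. Col6a1 had normalized counts of 59.2, 54.8, 72.4, 95.2 and 140.1 in Normal replicates 1 to 5, without the steep rise of Col1a1 in replicates 3 and 4. By the same measure, of 2980 genes compared with Fn1, Col1a1 stood 20th (1.60) and Fbn1 2586th (2.36). The rank depended on the gene of reference, since from Col1a1 Fn1 stood 1029th and Fbn1 1945th. These likenesses are a description over 10 rats, which include the difference between the groups.

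**Figure D4:**
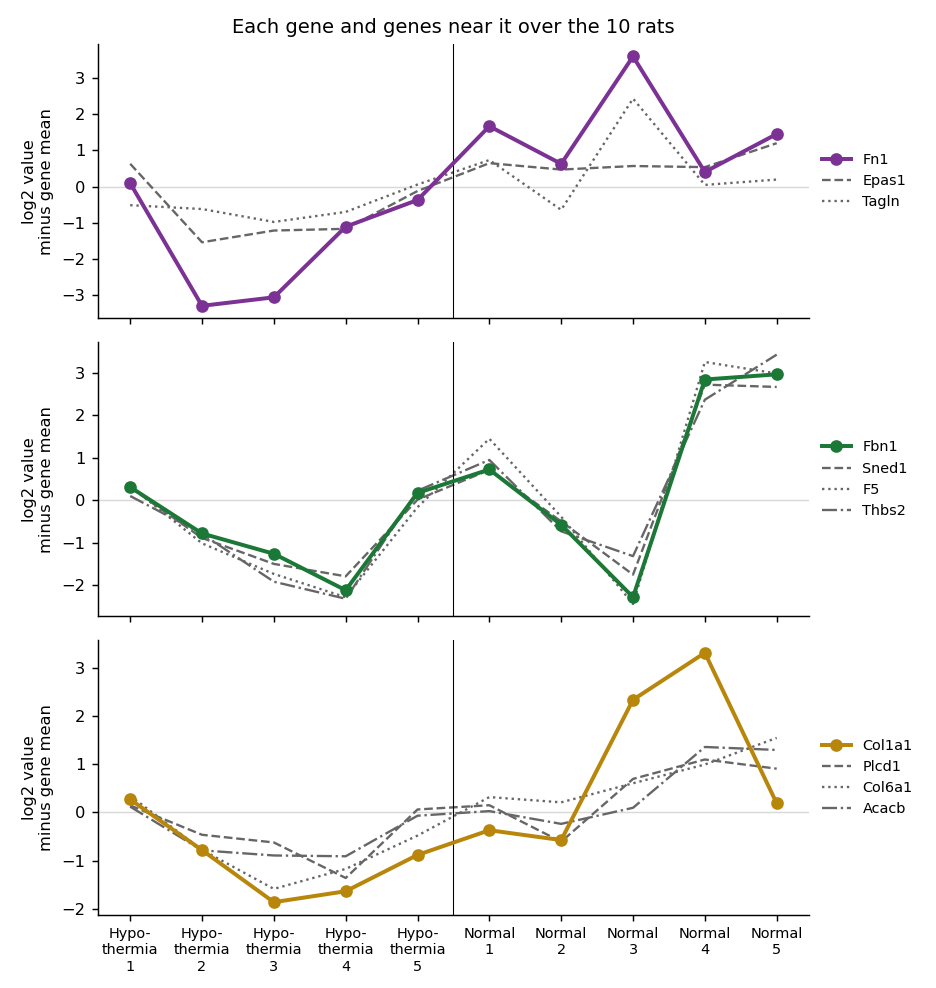
Log2(normalized count + 1) minus the mean of the gene over the 10 rats, for Fn1, Fbn1 and Col1a1 (thick lines) and genes near each (thin lines). Rats stand on the horizontal axis by group and replicate, and lines only join the points of a gene. The genes drawn with Fbn1 lie 0.24 to 0.44 from it (root mean square), while those drawn with Fn1 and Col1a1 lie 1.05 or more away.

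Some markers of other cells were highest in the same Normal rats as a member, and others were not. Of the 1045 lower genes described above, 34.8% had Normal replicates 4 and 5 as their highest 2, so sharing these rats was common. Mfrp, which is expressed in the ciliary epithelium and the retinal pigment epithelium, was the only one of 20 listed ciliary markers in the table. Its normalized counts were 439, 164, 86.7, 696 and 1301 in Normal replicates 1 to 5, highest in the same 2 rats as Fbn1 and lowest in the same Normal rat. In the Hypothermia Group Mfrp ran from 36.7 in replicate 4, which also had the lowest Fbn1, to 239 in replicate 5. The part of such cells in the Fbn1 values was not tested.

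Pigmented cell markers were weak. The 5 of 18 in the table (Rpe65, Ttr, Tyr, Rlbp1 and Pmel) summed to normalized counts of 327 to 506 in the Normal Group and 162 to 228 in the Hypothermia Group. The highest sum was in Normal replicate 1, but the markers differed. Pmel, called as lower, had 140, 75.3, 43.0, 114 and 146 in Normal replicates 1 to 5, highest and lowest in the same Normal rats as Fbn1. Among Normal rats Tyr was also lowest in replicate 3, while Rpe65 and Ttr were lowest in replicate 5 and Rlbp1 in replicate 2. Rpe65 and Tyr each had no reads in at least 1 library. Of the 20 fibroblast or stroma markers, 5 were in the table, and their sums ran from 6457 to 10164 in the Normal Group and from 11955 to 21747 in the Hypothermia Group, lowest in Normal replicate 3, where Col1a1 and Fn1 were high. S100a4 and Gsn, which other cells also express, made up most of these sums. Both rose in the Hypothermia Group, while Serping1 and Pdgfrb were called as lower. Pdgfrb, a growth factor receptor of fibroblasts and pericytes, ranged from 879 to 1201 in the Normal rats and was lower in every Hypothermia rat (log2FoldChange -0.87, adjusted p = 0.00965, edgeR). The complement genes Serping1 and C1s were highest in Normal replicates 4 and 5, as Fbn1 was. Their normalized counts in Normal replicates 1 to 5 were 852, 1106, 1158, 1427 and 1452 for Serping1 and 189, 196, 107, 503 and 370 for C1s, which was not called.

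Of 14 smooth muscle or pericyte markers, 5 were in the table, with sums of 1068 to 1576 in the Normal Group and 555 to 722 in the Hypothermia Group, highest in Normal replicate 5. Of these, Tagln had a clear peak in Normal replicate 3, as Fn1 had. Cspg4 (469 against 465) and Smtn (89.9 against 84.8) were only just higher there than in Normal replicate 4. Notch3 (422) and Mylk (37.4) had their lowest Normal values in replicate 3. In Normal replicate 5 Notch3 alone made up 1091 of the sum of 1576. The 2 of 18 endothelial markers summed to 395 to 653 in the Normal and 311 to 411 in the Hypothermia Group. The 2 of 19 neural retina markers summed to 4949 to 9347 and 2971 to 5234 in the same order, and the single immune marker of 17, Cd163, had 5.57 to 25.6 and 16.3 to 53.1. None of 11 blood markers was in the table. The retina sums, made up almost wholly of Glul, were highest in Normal replicates 4 and 5, as Fbn1 was. The summed lens epithelium markers (5 of 18) stayed between 40531 and 48014 in all 10 rats, although single markers shifted in opposite directions. Pax6 (log2FoldChange -0.26, adjusted p = 0.0498, edgeR) was called as lower and Pitx3 (0.34, adjusted p = 0.0198, edgeR) as higher. Gja1 (-0.43), Wls (0.25) and Mab21l1 (0.26) were not called. Lens fibre transcripts (23 of 26), from the cells beneath the epithelium, were lowest in Normal replicate 3, with a summed normalized count of 871139 against 1463000 to 4026010 in the other Normal rats. In the Hypothermia Group their sums were 5632280 to 11962300, above every Normal rat. All 23 were called as higher, as were 52.3% of all tested genes, beside the lower levels of Fn1, Fbn1 and Col1a1. Their part in the values of the 3 members was not tested.

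Among the other genes of the matrix, those most like the members in role were looked up in 7 lists of 203 genes in all, Col1a1 and Fbn1 included, of which 41 were in the table and 39 were tested. Of these, 11 were called as lower and 7 as higher in the Hypothermia Group, and 21 were not called. The median log2FoldChange was -0.38, against 0.36 over all tested genes. With TMM scaling, which moved the median of all genes by -0.29, 22 were called as lower and 3 (Col11a2, Cd44 and Mmp24) as higher, and over the whole table the split changed from 662 lower and 1686 higher to 1100 and 639. Without Hypothermia replicate 3, Normal replicate 4 or Normal replicate 5, the calls in the lists numbered 11, 10 and 10.

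The 6 microfibril and elastic fibre genes tested, Fbn1 included, were all lower in fitted level, and 2 were called. Over the table, 1169 of the 3222 tested genes were lower in fitted level, and 20.5% were called as lower. Adamtsl4, whose product binds fibrillin-1 and is needed to keep the lens in place, fell by 0.86 on the log2 scale (standard error 0.17, adjusted p = 0.00844, edgeR), and Emilin1 fell by 0.48 (adjusted p = 0.0167, edgeR). Fbln2, which encodes fibulin-2, had the pattern of Fbn1, with normalized counts of 1066, 189, 144, 2034 and 2947 in Normal replicates 1 to 5, and was not called (log2FoldChange -2.68, adjusted p = 0.0840, edgeR). Fbn2 was not analysed here.

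Of 5 fibrillar and associated collagens tested, Col1a1 included, 3 were lower in fitted level. By call, 1 was lower and 2 were higher, where 20.5% and 52.3% of all tested genes were. Col6a1 fell by 1.43 on the log2 scale (standard error 0.38, adjusted p = 0.0286, edgeR), with its call lost in 6 of 10 leave-one-out fits. Col11a2 rose by 0.81 (adjusted p = 0.00575, edgeR) and Col16a1 by 0.38 (adjusted p = 0.0388, edgeR), the latter not called with TMM scaling or in 7 of 10 leave-one-out fits. Col1a2, the partner chain of Col1a1, was not analysed here. Col5a2, a chain of collagen V, which is built into collagen I fibrils, had normalized counts of 26.8, 22.1, 75.6, 37.6 and 36.6 in Normal replicates 1 to 5, highest in replicate 3, and was not called (adjusted p = 0.0803, edgeR).

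Of 4 collagen maturation genes, Loxl3, a lysyl oxidase-like enzyme, fell by 0.36 (adjusted p = 0.0244, edgeR; call lost in 6 of 10 leave-one-out fits), and P3h4, a partner of collagen-modifying enzymes in the endoplasmic reticulum, rose by 0.59 (adjusted p = 0.00634, edgeR), a call lost with TMM scaling. Lox, which cross-links collagen and elastin, was not called and had its highest normalized count, 103, in Normal replicate 3.

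Of 7 receptors and adaptors tested, 3 were called as higher and 1 as lower, a balance that TMM scaling turned to 1 higher and 3 lower. Itga5, the α5 subunit of the main fibronectin receptor, fell by 0.65 on the log2 scale (standard error 0.14, adjusted p = 0.0103, edgeR) and was lower in every Hypothermia rat than in any Normal rat. Cd44, a receptor for hyaluronan, rose by 1.27 (adjusted p = 0.0176, edgeR; call lost in 1 of 10 leave-one-out fits), and the adhesion adaptors Pxn (0.43) and Ilk (0.42) rose as well (adjusted p = 0.00965 and 0.00949, edgeR), although not with TMM scaling. Itgb1, the partner subunit of Itga5, was not called (0.40, adjusted p = 0.126, edgeR). Tns1 and Tln1, which encode tensin-1 and talin-1, were not called either.

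None of the 4 basement membrane genes tested, Lama4, Lama2, Lamc1 and Agrn, was called by edgeR at an adjusted p under 0.05. DESeq2 and TMM scaling each called all 4 as lower. All 4 had an unadjusted p under 0.05 in the edgeR fit, as did 3221 of the 3222 tested genes of this chosen list. Lama4, a laminin chain, had normalized counts of 125, 73.6, 58.1, 313 and 322 in Normal replicates 1 to 5, with the same 2 high rats as Fbn1.

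Of 7 genes of the TGF-β list, 4 were called, all lower, among them Tgfbi, Tgif1 and Ski. Over the table, 72.9% of the tested genes were called, and 20.5% were called as lower. In the 10 leave-one-out fits, 0 to 3 genes of this list were called. Tgfbi, a matrix protein induced by TGF-β, fell by 1.88 (adjusted p = 0.0459, edgeR) on few reads, and the corepressors Tgif1 and Ski fell by 0.35 and 0.38 (adjusted p = 0.0378 and 0.0231, edgeR). The ligand Tgfb1 was not called (0.26, adjusted p = 0.0504, edgeR). Tgfbi and Tgif1 each lost their calls in 8 of 10 leave-one-out fits, and Ski in 5.

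Of 6 matrix proteases and inhibitors tested, Mmp14, a membrane-bound metalloproteinase, fell by 0.61 (adjusted p = 0.0103, edgeR), and Reck, a membrane inhibitor of metalloproteinases, by 0.60 (adjusted p = 0.0240, edgeR), a call lost in 4 of 10 leave-one-out fits. Mmp24, another membrane-bound metalloproteinase, rose by 0.67 (adjusted p = 0.00459, edgeR). Mmp14 lacked the steep peaks of the 3 members, with normalized counts of 1279 to 1921 in the Normal rats.

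**Figure D5:**
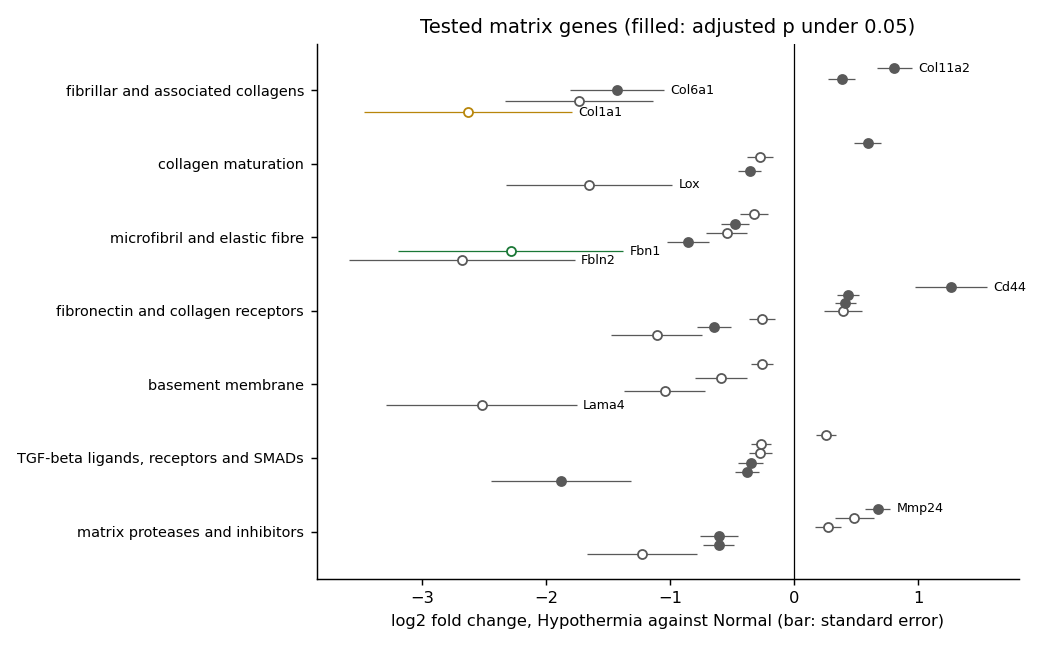
Log2 fold change (Hypothermia against Normal) of the tested matrix genes by list, with 1 gene of the TGF-β list left out, with bars for the standard error and filled points for an adjusted p under 0.05. Col1a1 (gold) and Fbn1 (green) lie far to the left with long bars and open points, and the called genes mostly have short bars. Fn1 belongs to none of the 7 lists and is not drawn.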

How the data were processed

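Lens capsule RNA of 5 Hypothermia and 5 Normal rats was analysed, with groups taken from the treatment labels. Per the labels, the authors aligned reads to Rnor_6.0 with HISAT2 2.0.5 and counted them per gene with featureCounts 1.5.0-p3, giving the deposited counts. The annotation release is not given in the sources used here. The authors made the deposited FPKM values from these counts, gene length and their size factors. Of the deposited columns, the group means are normalized counts, a signal on the count scale, from which the authors' size factors (0.744 to 1.26) were recovered by least squares. The authors' own log2 fold changes and p-values were deposited too and are not used here. The deposited table is a list of genes chosen on that comparison. Of its genes, 124 had no symbol (0.295% to 0.704% of the counts) and were kept.

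The quasi-likelihood test of edgeR 4.0.16 (R 4.3.3) was run on the whole table with these size factors, a model of group alone, robust dispersion estimates and the default filter on low counts, which left 3222 genes. Adjustment was by Benjamini-Hochberg over 17000 genes, about the number expressed. Standard errors were derived from the fold change and its F statistic. Single values were compared by exact permutation over 252 assignments, on log2 with a pseudocount of 1. The fit was tested on simulated data. Named genes were the members, the 3 nearest genes of each member, up to 4 called genes a direction in each list, and paralogs. Genes named for a peak in the same rats as a member (Fbln2, Lama4, Col5a2, Lox), or as uncalled members of their lists (Itgb1, Tns1, Tln1, Tgfb1, Lama2, Lamc1, Agrn), the single markers, and the ratio of 3 for wide genes were chosen after their values were seen. The members, lists and design were chosen with earlier results of these data known. Alternatives were TMM, median-of-ratios factors, DESeq2 1.42.0, no filter, adjustment over the tested genes, non-robust estimates (robust = FALSE), blocking on replicate numbers, leaving out single rats, and for the spread FPKM and another pseudocount. TMM and leaving out rats were added for the permutation tests after seeing the data. The labels give no batch, and p-values measure the spread between these rats. The values of 1 gene that the rule names are not reported here, though counts of genes include it.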

Additional observations from a re-analysis of the deposited data

Results flagged for a closer look

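In groups of 5, the gap of the highest or lowest rat to its nearest neighbour was compared with Dixon's critical value of 0.71 of the range. This was done for the named genes, in 56 groups, and for normally distributed values chance flags about 1 in 20. The gaps were taken on normalized counts and not on log2 values, on which a high rat lies less far from the rest. The limit was exceeded in 5 groups. Normal replicate 3 stood apart with a normalized count of 975 for Fn1 and of 274 for Tagln, the only rat that stood apart for more than 1 of these genes. Tagln was named for its likeness to Fn1 over these same rats, so the repeat follows in part from that choice. Normal replicate 1 stood apart with a low 508 for Emilin1, Normal replicate 5 with 470.5 for Epas1, and Hypothermia replicate 1 with 19.3 for Tgfbi. The high rats of Fbn1 and Col1a1 did not pass this limit, since each had another high rat.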

How the results depend on the processing

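The log2FoldChanges of Fn1, Fbn1 and Col1a1 stayed below 0 under every alternative that was run. With the replicate number as a block, which pairs different animals, that of Fn1 was -2.76 (adjusted p = 0.0684, edgeR), and the called genes numbered 943 in the table and 8 in the matrix lists. Same-numbered rats had correlations of their deviations from -0.17 to 0.23, so the numbers do not pair them. With 1 rat left out, the log2FoldChange ranged from -3.58 to -2.15 for Fn1, from -2.59 to -1.76 for Fbn1 and from -3.08 to -1.74 for Col1a1. Adjustment over the tested genes alone called Fbn1 (-2.29) and Col1a1 (-2.63), and all 39 tested matrix genes. This setting called 3221 of the 3222 tested genes of the table, so nothing can be read from these calls. Col1a1 was also called with median-of-ratios scaling (-2.99), robust = FALSE (-2.63) and DESeq2 (-2.63). DESeq2 called 34 matrix genes, beside 2938 genes of the whole table. With 1 rat left out, 1377 to 2385 table genes and 10 to 20 matrix genes were called. The mean log2 difference of Col1a1 ranged from -2.35 to -1.37 and its exact permutation p from 0.0159 to 0.0952. On FPKM with a pseudocount of 0.1 the log2 SD of Fn1 in the Hypothermia Group was 1.0, below the 1.2 of the Normal Group, and the SD in the Normal Group ranged from 0.61 to 1.45 on normalized counts with 1 rat left out. Of 544 other comparisons with an alternative, 405 kept their call or count, 71 lost a call, 24 gained one and 44 counts moved by more than 1.5 times. Fn1 and Col1a1 had few reads in the Hypothermia Group, which limits the precision of their fold changes.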
